A study of Mus musculus with 180 samples.

Results

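The genes described here are the fetal RNA-binding and chromatin program of Lin28b, Lin28a, Hmga2, Hmga1, Igf2bp1, Igf2bp2, Igf2bp3 and Arid3a, chosen by name, of which 7 were among the 14825 genes of the expression table. Lin28a had no row and its level was not analysed. Expression was measured in 180 single mouse cells of 4 haematopoietic populations on a C57BL/6 background, as TPM (transcripts of a gene per 1000000 transcripts of the cell, corrected for transcript length, so that levels can be set side by side between genes). FL HSC were 56 fetal liver haematopoietic stem cells of embryonic Day14.5, sorted as CD45.2+, lineage negative, Sca1+, c-kit+, CD11b+ and CD150+. BM HSC were 36 adult bone marrow haematopoietic stem cells and WT-MPP were 41 multipotent progenitors (CD48-, CD150-, CD135+), both from mice 8 weeks old. These 3 populations came from Rosa LSL-Hoxb5-EGFP/+ mice (Hoxb5LSL/+ in the sample labels), which carry the Hoxb5 cassette behind a stop cassette and no Cre. CD11b+CD48+SK cells were 47 donor-derived GFP+, lineage negative, Sca1+, c-kit+ cells from primary recipients at week 8 after transplantation. Their donor MPP were Mx1cre/Rosa LSL-Hoxb5-EGFP/+, the recipients were lethally irradiated CD45.1+ mice, and ectopic Hoxb5 was switched on by pIpC, an inducer of the interferon-responsive Mx1 promoter that drives Cre.

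The labels tie no cell to an animal. Each population was therefore taken as 1 sample, the populations were compared without a test, and a population and its collection cannot be told apart. Intervals in brackets are exact 95% Clopper-Pearson intervals, which cover the counting of cells only. The read depth of a cell is unknown. As a stand-in, the genes that reached a TPM of 1 were counted in each cell, and their median was 5206.5 in FL HSC, 4514 in CD11b+CD48+SK cells, 4441.5 in BM HSC and 3844 in WT-MPP. A gene was called present in a cell at a TPM of 1 or more. The source label named bone marrow for every cell, FL HSC included, while the cell type label and the sorting protocol gave fetal liver. The stem cell genes of the sort were present in most FL HSC, with Ly6a in 51, Kit in 48 and Slamf1 in 31 of 56 cells, while Itgam, which encodes the CD11b of the gate, was present in 9. CD135 and CD48 were not part of the FL HSC gate. Flt3, which encodes CD135, was present in 30 FL HSC and 9 of 36 BM HSC, and Cd48 in 10 FL HSC and 1 BM HSC.

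LIN28A and LIN28B are RNA-binding proteins that hold back the maturation of the let-7 microRNAs, and let-7 in turn represses mRNAs of growth and fetal genes. HMGA2 and HMGA1 are small AT-hook chromatin proteins, the IGF2BP proteins bind and stabilise mRNAs in the cytoplasm, and ARID3A is a DNA-binding factor of the AT-rich interaction domain family. In blood, the LIN28B, let-7 and HMGA2 axis is known for setting fetal against adult properties of stem and progenitor cells.

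The let-7 sequences are shown because every member carried a match to them. The 9 let-7 family 5p sequences of RefSeq (GRCm38.p6) shared bases 2 to 8, the seed, given in capitals in the 7 printed here.
let-7a-5p: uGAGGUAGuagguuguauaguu
let-7b-5p: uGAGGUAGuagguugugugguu
let-7d-5p: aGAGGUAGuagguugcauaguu
let-7e-5p: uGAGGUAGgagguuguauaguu
let-7g-5p: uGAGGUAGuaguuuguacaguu
let-7i-5p: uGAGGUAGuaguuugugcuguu
miR-98-5p: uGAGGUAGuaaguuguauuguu

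LIN28 proteins are known to bind the terminal loop of let-7 precursors, where GGAG is the recognised motif. Between the 5p and 3p arms, 9 of the 12 let-7 hairpins held GGAG, given in capitals in the hairpins of the 3 let-7 loci that the expression table listed. All 3 lie within one stretch of chromosome 13.
Mirlet7a-1, chr13:48538179-48538272, minus strand: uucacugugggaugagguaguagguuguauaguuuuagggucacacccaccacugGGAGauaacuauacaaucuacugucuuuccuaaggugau
Mirlet7f-1, chr13:48537829-48537917, minus strand: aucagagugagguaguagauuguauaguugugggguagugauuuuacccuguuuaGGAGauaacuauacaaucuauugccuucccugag
Mirlet7d, chr13:48536012-48536114, minus strand: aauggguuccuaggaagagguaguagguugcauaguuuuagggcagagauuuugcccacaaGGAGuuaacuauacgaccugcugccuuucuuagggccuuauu

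The seed pairs with CTACCTC, its reverse complement, which was searched on the transcript strand in the longest 3′ UTR of each protein-coding gene of GENCODE M21 (GRCm38, the build of the files). All 8 genes of the program held at least 1 match, against 8.96% of the 20979 3′ UTRs searched. Longer 3′ UTRs hold more matches by length alone. Igf2bp1 held 4 matches in 6337 bases, Lin28b 4 in 4445 bases and Hmga2 4 in 3014 bases. Among 3′ UTRs of 0.8 to 1.25 times their own length, as many matches were found in 0.332% for Igf2bp1, 0.297% for Lin28b and 0.124% for Hmga2. Lin28a and Arid3a held 2 each, and Igf2bp2, Igf2bp3 and Hmga1 held 1 each. The last 3 were no rarity, since 12.1%, 13.3% and 8.12% of 3′ UTRs near their lengths held a match as well. The genes were chosen with their known link to let-7 in view, so these shares are a description. The match nearest the stop codon of each gene, in capitals, is shown in a 22-base window that ends 1 base after it.
Lin28b, chr10:45381022-45381043, minus strand: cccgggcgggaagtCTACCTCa
Lin28a, chr4:134005189-134005210, minus strand: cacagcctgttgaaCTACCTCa
Hmga2, chr10:120364224-120364245, minus strand: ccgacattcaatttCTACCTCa
Hmga1, chr17:27563278-27563299, plus strand: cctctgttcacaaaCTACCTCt
Igf2bp1, chr11:95961778-95961799, minus strand: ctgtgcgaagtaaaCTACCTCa
Igf2bp2, chr16:22059473-22059494, minus strand: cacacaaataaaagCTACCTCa
Igf2bp3, chr6:49086787-49086808, minus strand: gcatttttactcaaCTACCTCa
Arid3a, chr10:79953896-79953917, plus strand: aggcaagtttctttCTACCTCa

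Each of these windows lies in the 3′ UTR of its gene. The match was followed by an A, the base that lies opposite the first base of let-7, in all of them except the one of Hmga1. A match is a description of the sequence and not a measured binding site. Mature let-7 was not measured in these cells. In the table the 3 listed let-7 loci were at or near 0: Mirlet7a-1 reached a TPM of 1 in no cell, Mirlet7f-1 in 2 CD11b+CD48+SK cells, and Mirlet7d in 1 FL HSC, 1 CD11b+CD48+SK cell, 1 BM HSC and 2 WT-MPP. A value of 0 for so short a transcript does not show that the locus was silent, since Ptprc, which encodes the CD45 of the sort, was also listed at 0 in 7 FL HSC.

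The program was mainly seen in FL HSC, and it was carried by Hmga2, the Igf2bp genes, Arid3a and Hmga1 rather than by Lin28b. All 7 listed members were present in a larger share of FL HSC than of any other population, where 49.9% of the 10856 genes kept by the filter (present in at least 10% of the cells of 1 population) had their highest share in FL HSC. The mean log2(TPM + 1) was higher in FL HSC than in BM HSC by 1 or more, a 2-fold difference on this scale, for 6 of the 7 members and for 25.6% of the kept genes. With a pseudocount of 10 in place of 1, only Hmga2 and Hmga1 stood that far above BM HSC (2 of 7 members, against 9.61% of the kept genes). It was higher than in WT-MPP by 1 or more for 6 members, against 33.9% of the kept genes, and higher than in CD11b+CD48+SK cells for 6 members, against 20.9%. Those 6 members stood 1 or more above each of the other populations at once, as did 11% of the kept genes. The exception each time was Lin28b. None of the members was lower in FL HSC than in BM HSC by 1 or more, against 5.44% of the kept genes. The median difference of FL HSC from BM HSC was 1.85 over the members and 0.31 over the kept genes. All 7 members passed the filter, but Lin28b, Igf2bp1 and Igf2bp3 passed it through FL HSC only, the group where their share is highest. The members were chosen with earlier results of these data known, so the counts set against the kept genes are a description.

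**Figure D1:**
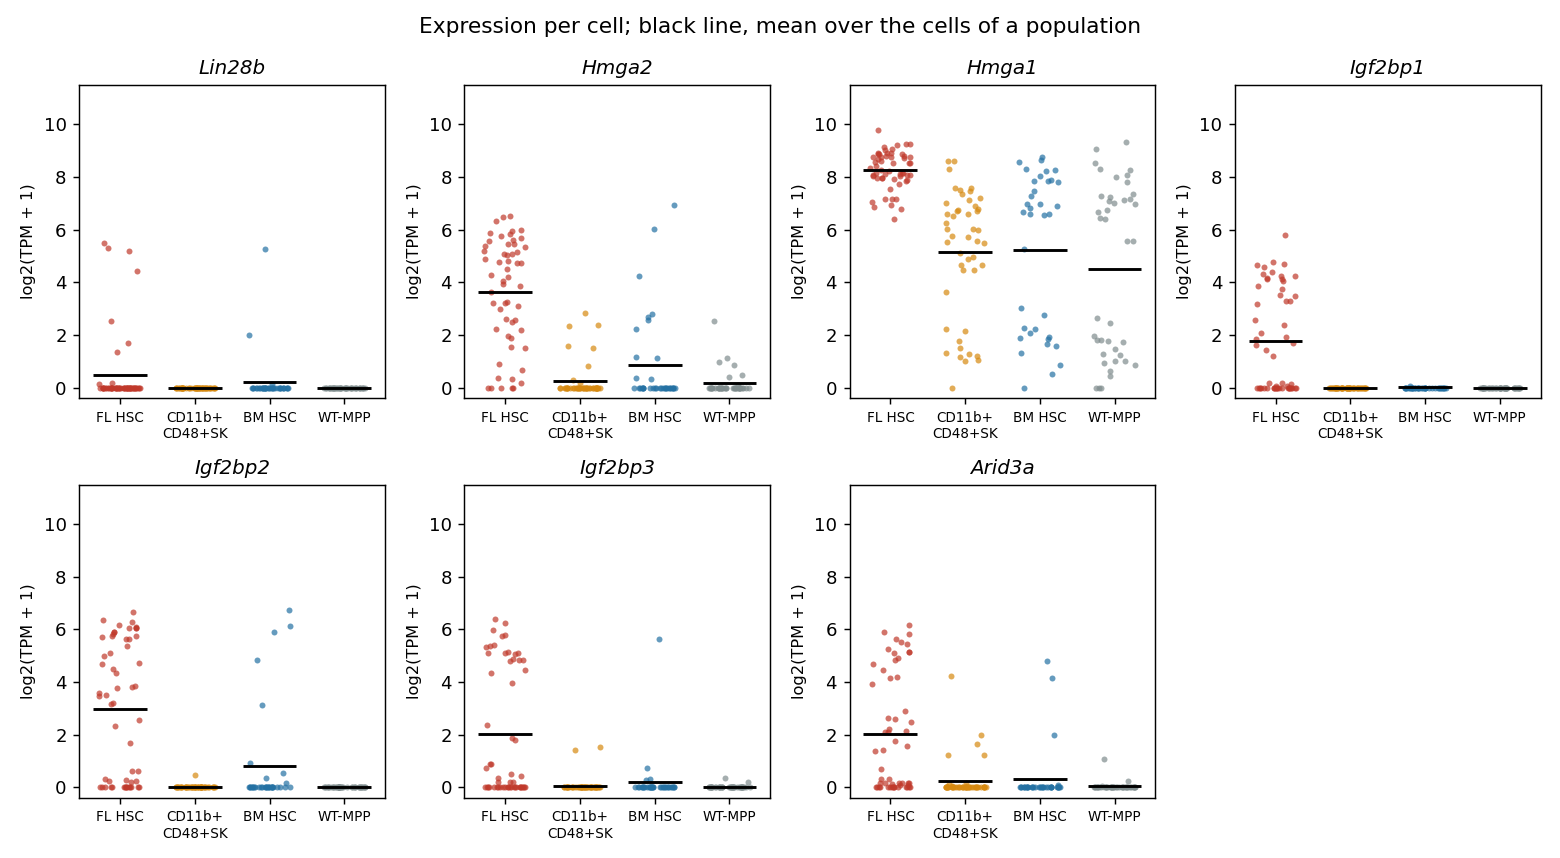
Expression of the 7 listed members in every cell, as log2(TPM + 1) on the vertical axis, with 1 point per cell, the 4 populations side by side and a black line at the mean. Hmga1 was high in all 56 FL HSC and split into high and low cells elsewhere, Igf2bp1 was close to 0 outside FL HSC, and Lin28b was above a TPM of 1 in 7 FL HSC and 2 BM HSC.

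Lin28b, the member that gives the axis its name, was sparse. It was present in 7 of 56 FL HSC (12.5%, 5.18 to 24.1%), with a median TPM of 20.8 among those 7 cells and a highest TPM of 43.9. In BM HSC it was present in 2 of 36 cells (5.56%, 0.68 to 18.7%), at a TPM of 2.99 and 36.98. It was listed at 0 in all 47 CD11b+CD48+SK cells, where a share of up to 6.38% remains possible, and in all 41 WT-MPP, where up to 7.32% does, taking 3 cells as the limit that a count of 0 allows. The intervals of FL HSC and BM HSC overlapped, and the highest BM HSC lay within the range of the FL HSC. FL HSC and BM HSC differed by 0.27 in mean log2(TPM + 1), a smaller difference than the median of 0.31 over all kept genes. The 7 FL HSC with Lin28b were not poor in the rest of the program: every one of them held Hmga2, 6 held Igf2bp2, 6 held Igf2bp3 and 5 held Igf2bp1. These cells had between 4768 and 6789 genes present, above the range of 3974 to 4751 that all 4 populations share, so that no cell with Lin28b remained when FL HSC and BM HSC were limited to that range, with 14 cells in each.

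Hmga2 was the member that set FL HSC apart most broadly among the rarer genes. It was present in 46 of 56 FL HSC (82.1%, 69.6 to 91.1%), with TPM values between 0 and 90.2, a median of 16.7 and quartiles of 3.34 and 39.5. In BM HSC it was present in 9 of 36 cells (25%, 12.1 to 42.2%), where 3 cells were at a TPM of 10 or more and the highest cell, at 120.4, exceeded every FL HSC. It was present in 5 of 47 CD11b+CD48+SK cells (10.6%, 3.55 to 23.1%), with no cell above 6.10, and in 2 of 41 WT-MPP (4.88%, 0.596 to 16.5%), with no cell above 4.70. FL HSC thus stood above all the others with intervals that did not overlap, while the intervals of BM HSC, CD11b+CD48+SK cells and WT-MPP overlapped with one another. Within the shared range of gene numbers Hmga2 was present in 11 of 14 FL HSC (78.6%, 49.2 to 95.3%) and 4 of 14 BM HSC (28.6%, 8.39 to 58.1%), and these intervals overlapped. On the log2(TPM + 1) scale the mean of Hmga2 was 3.61 in FL HSC (SD 2.05 over cells) and 0.84 in BM HSC (SD 1.74). The difference of 2.77 was larger than that of 97.8% of the kept genes. Hmga2-ps1, a listed pseudogene of Hmga2 that could share reads with it, was present in 6 FL HSC, 3 CD11b+CD48+SK cells and no BM HSC or WT-MPP.

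Hmga1 was present in most cells of every population: in all 56 FL HSC (100%, 93.6 to 100%), 46 of 47 CD11b+CD48+SK cells, 33 of 36 BM HSC and 34 of 41 WT-MPP (82.9%, 67.9 to 92.8%). The interval of WT-MPP lay below that of FL HSC, and the level differed as well. In FL HSC its TPM ran from 84.0 to 892.2 with a median of 313.3. The median TPM was 53.5 in CD11b+CD48+SK cells (highest cell 391.3), 98.1 in BM HSC (highest cell 429.6) and 46.7 in WT-MPP (highest cell 651.3). The lower quartile of FL HSC, 247.7, lay above the upper quartile of each other population, of which 228.05 in BM HSC was the highest, although the highest cells overlapped. The spread over cells was also narrower in FL HSC, with an SD of 0.72 on the log2(TPM + 1) scale against 2.40 in CD11b+CD48+SK cells, 2.97 in BM HSC and 3.23 in WT-MPP. The mean log2(TPM + 1) of FL HSC was higher by 3.05 than in BM HSC, 3.13 than in CD11b+CD48+SK cells and 3.76 than in WT-MPP. How reads that match several places of the genome were assigned is not given in the sources used here, and the level of Hmga1 is uncertain to that extent.

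**Figure D2:**
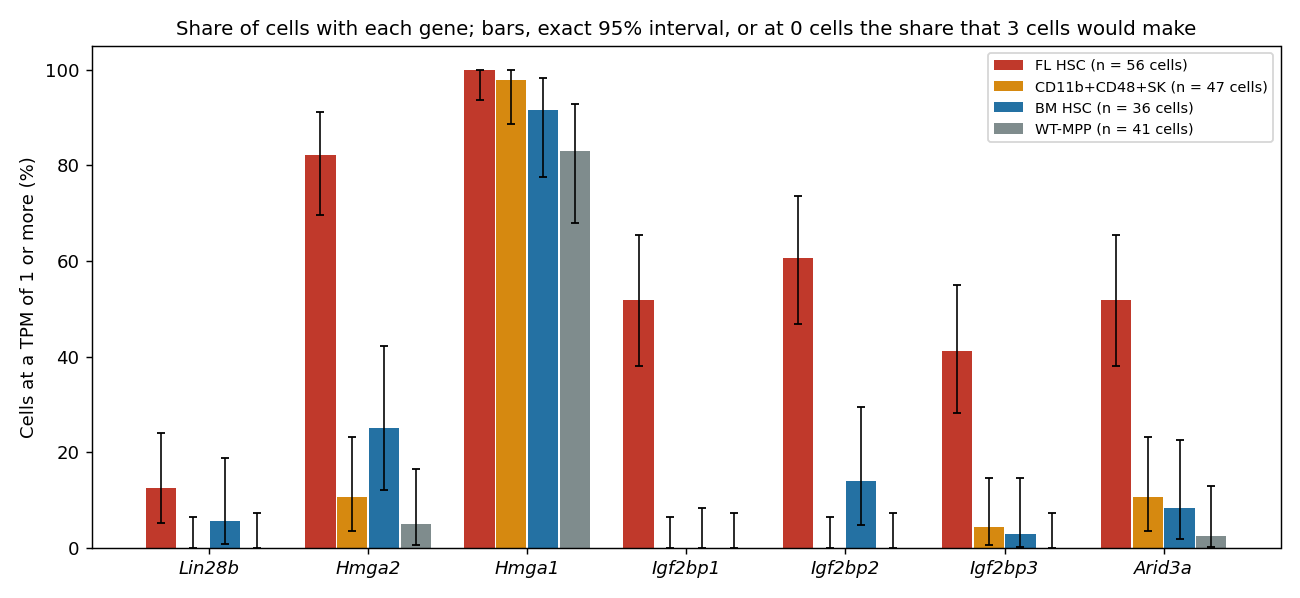
Percentage of cells of each population in which a member was present (TPM of 1 or more), with bars for the 4 populations and black lines for the exact 95% interval or, at 0 cells, the share that 3 cells would make. The interval of FL HSC lies clear of all the others for Hmga2, Igf2bp1, Igf2bp2, Igf2bp3 and Arid3a, and overlaps that of at least 1 other population for Lin28b and Hmga1.

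The 3 Igf2bp genes encode paralogous mRNA-binding proteins, and each was present in a share of FL HSC whose interval, over all cells, lay above those of the other populations. Within the shared range of gene numbers the interval of FL HSC overlapped that of BM HSC and of WT-MPP for each of the 3, and stayed above that of CD11b+CD48+SK cells for Igf2bp2 only. Igf2bp1 was present in 29 of 56 FL HSC (51.8%, 38.03 to 65.3%), with a median TPM of 12.5 among the cells that had it and a highest TPM of 55.3. It reached a TPM of 1 in none of the other 124 cells, and only 1 of them, a BM HSC at 0.0491, was above 0. With the same limit of 3 cells, a count of 0 allows a share of up to 6.38% in CD11b+CD48+SK cells, 8.33% in BM HSC and 7.32% in WT-MPP. No other member was present in so few cells outside FL HSC. Of all members it also moved most with the number of genes per cell, with a Spearman's rho of 0.37 over the 56 FL HSC. Within the range of gene numbers shared by the 4 populations it was present in 3 of 14 FL HSC (21.4%, 4.66 to 50.8%) and in none of the other 55 cells, and the difference from BM HSC was 0.49 in place of 1.78.

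Igf2bp2 was the only Igf2bp gene seen in several adult stem cells. It was present in 34 of 56 FL HSC (60.7%, 46.8 to 73.5%), with a median TPM of 36.7 among those cells and a highest TPM of 99.6. In BM HSC it was present in 5 of 36 cells (13.9%, 4.67 to 29.5%), at TPM values of 7.65, 27.7, 58.7, 68.6 and 107.0. It reached a TPM of 1 in no CD11b+CD48+SK cell and in no WT-MPP. The BM HSC that had Igf2bp2 thus lay within or just above the range of the FL HSC that had it, but were a smaller share of their population. The difference in mean log2(TPM + 1) was 2.18 from BM HSC, 2.97 from CD11b+CD48+SK cells and 2.98 from WT-MPP. Within the shared range of gene numbers Igf2bp2 was present in 6 of 14 FL HSC (42.9%, 17.7 to 71.1%) and 1 of 14 BM HSC (7.14%, 0.18 to 33.9%), with a difference of 1.61.

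Igf2bp3 was present in 23 of 56 FL HSC (41.1%, 28.1 to 55.02%), with a median TPM of 32.99 among those cells and a highest TPM of 82.4. It was present in 2 of 47 CD11b+CD48+SK cells, both below a TPM of 2, in 1 of 36 BM HSC at a TPM of 48.2, and in none of 41 WT-MPP. The difference in mean log2(TPM + 1) from BM HSC was 1.85. Within the shared range of gene numbers Igf2bp3 was present in 4 of 14 FL HSC (28.6%, 8.39 to 58.1%) and 1 of 14 BM HSC (7.14%, 0.18 to 33.9%), with a difference of 1.23. Exons of Malsu1, a mitochondrial ribosome assembly gene, overlap Igf2bp3 on the opposite strand by up to 1529 bases in GENCODE M21, and without strand the reads there cannot be told apart. Malsu1 was present in 46 FL HSC, 30 CD11b+CD48+SK cells, 20 BM HSC and 21 WT-MPP. Igf2bp3 was present in 19 of the 46 FL HSC with Malsu1 and in 4 of the 10 without it. In the adult populations 71 cells held Malsu1, of which 3 held Igf2bp3. Igf2bp3 was present in none of the 17 CD11b+CD48+SK cells, 16 BM HSC and 20 WT-MPP without Malsu1. The part of shared reads in the level of Igf2bp3 was not tested.

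Arid3a was present in 29 of 56 FL HSC (51.8%, 38.03 to 65.3%), with a median TPM of 17.4 among the cells that had it and a highest TPM of 70.7. Outside FL HSC it was rare, with 5 of 47 CD11b+CD48+SK cells (10.6%, 3.55 to 23.1%) and 3 of 36 BM HSC (8.33%, 1.75 to 22.5%). Of the 41 WT-MPP, 1 held it (2.44%, 0.0617 to 12.9%). The highest TPM values of these cells were 17.995 in CD11b+CD48+SK cells, 27.2 in BM HSC and 1.12 in WT-MPP. FL HSC lay clear of the others, and the intervals of the others overlapped. In contrast to Igf2bp1, Arid3a did not go with the number of genes per cell within FL HSC (rho = -0.04), and within the shared range of gene numbers it was present in 9 of 14 FL HSC and in none of 14 BM HSC.

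**Figure D3:**
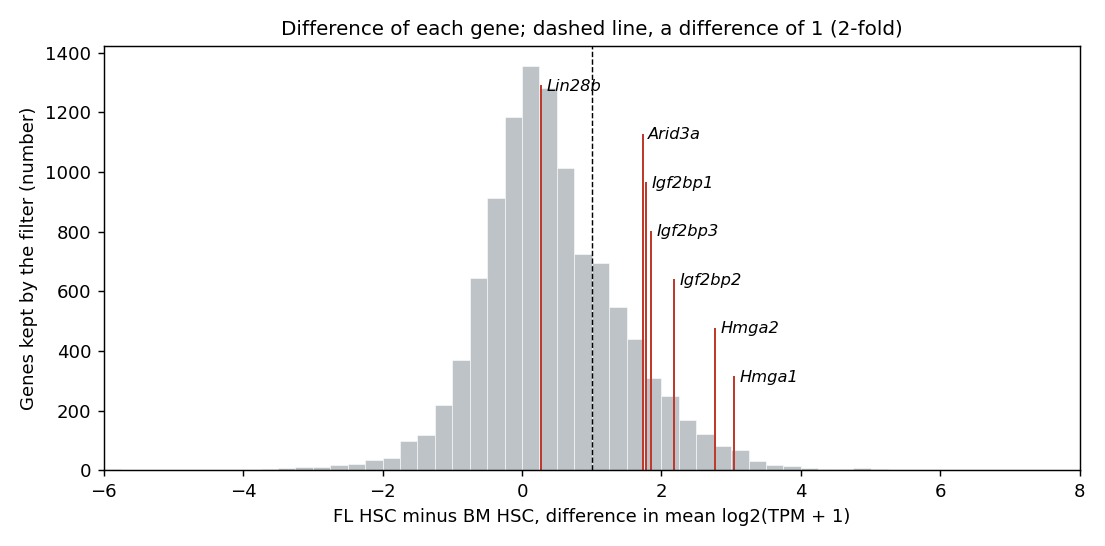
FL HSC minus BM HSC, as the difference of their mean log2(TPM + 1), on the horizontal axis for the 10856 kept genes (grey, number of genes per bin of 0.25) and for the 7 listed members (red lines, whose heights only separate the names). The dashed line marks a difference of 1. Lin28b, at 0.27, falls in the middle of the distribution and the other members lie between 1.73 and 3.05, in its upper part.

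In CD11b+CD48+SK cells, the cells with ectopic Hoxb5, members other than Hmga1 were present in few cells. The mean log2(TPM + 1) was higher than in WT-MPP by 1 or more for 0 of 7 members, against 19% of the kept genes, and higher than in BM HSC for 0 of 7, against 13.4%. With 7 genes, both counts lie near those shares. Compared with WT-MPP, the differences were 0.63 for Hmga1, 0.19 for Arid3a, 0.10 for Hmga2, 0.05 for Igf2bp3, 0.01 for Igf2bp2 and 0 for Lin28b and Igf2bp1. Compared with BM HSC, the differences were -0.59 for Hmga2, -0.79 for Igf2bp2, -0.20 for Lin28b and between -0.13 and 0 for the other members. Of the 6 members other than Hmga1, 10 of 47 CD11b+CD48+SK cells (21.3%, 10.7 to 35.7%) held at least 1. Most of these values were low: 9 of the 10 cells had no such member above a TPM of 6.10, and the last had Arid3a at 17.995.

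Most FL HSC held several members at once. Such counts depend on the share of each member, and whether members met in a cell more often than their shares give was not tested. At least 3 of the 7 listed members were present in 50 of 56 FL HSC (89.3%, 78.1 to 96.0%), in 3 of 36 BM HSC (8.33%, 1.75 to 22.5%), in 2 of 47 CD11b+CD48+SK cells (4.26%, 0.52 to 14.54%) and in none of 41 WT-MPP. Since Hmga1 was present in most cells of every population, the count was also made over the other 6. On that count, 33 of 56 FL HSC (58.9%, 44.98 to 71.9%) held 3 or more, 18 held 4 or more, and 3 cells held all 6. No BM HSC, CD11b+CD48+SK cell or WT-MPP held more than 2. A single FL HSC held none.

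**Figure D4:**
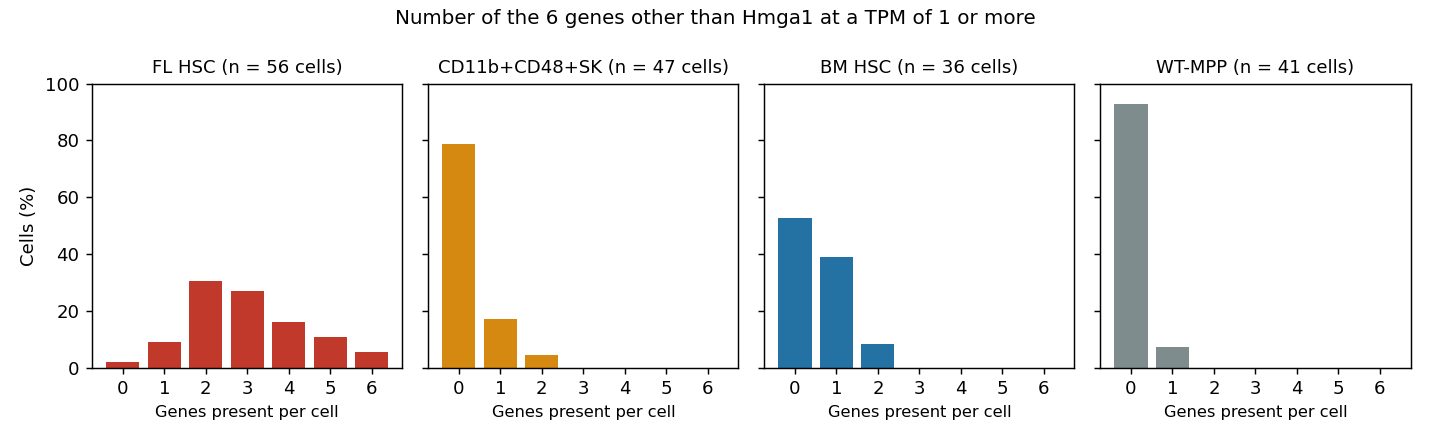
Percentage of cells by the number of members present, over the 6 members other than Hmga1, in the 4 populations. FL HSC spread from 0 to 6 with a median of 3, and none of the other populations goes beyond 2.

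Most BM HSC that held any of the 6 members other than Hmga1 held only 1. Each of the 6 was present in at most 25% of BM HSC, which by itself makes cells with more than 1 uncommon. At least 1 of the 6 was present in 17 of 36 BM HSC (47.2%, 30.4 to 64.5%), compared with 55 of 56 FL HSC and 3 of 41 WT-MPP (7.32%, 1.54 to 19.9%). Only 3 BM HSC held more than 1. These were a cell with Lin28b at 36.98 and Igf2bp2 at 58.7, a cell with Igf2bp2 at 107.0 and Hmga2 at 3.66, and a cell with Igf2bp3 at 48.2 and Hmga2 at 1.20. The BM HSC with the highest Hmga2 (120.4 and 63.8) held no other of the 6. The share with at least 1 member was larger in BM HSC than in WT-MPP, with intervals that did not overlap, and BM HSC also had more genes present per cell than WT-MPP. The part of that depth in the share was not tested.

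Among themselves, the members varied almost independently over the FL HSC. Over the 21 pairs, Spearman's rho of TPM over the 56 cells ran from -0.20 to 0.41 with a median of 0.03. The highest value was that of Igf2bp1 and Igf2bp3: Igf2bp1 was present in 16 of the 23 cells with Igf2bp3 (69.6%) and in 13 of the 33 without it (39.4%). Both genes also went with the number of genes per cell, with rho of 0.37 and 0.21, and the part of this in their relation was not tested. The lowest value, -0.20, was that of Hmga2 and Igf2bp2, with Hmga2 present in 27 of the 34 cells with Igf2bp2 (79.4%) and in 19 of the 22 without it (86.4%). Hmga2 and Hmga1, the AT-hook genes, had a rho of 0.17. The cells share their population and collection, values at 0 are many, and these relations are descriptions. The number of the 6 members per cell went with the number of genes present (rho = 0.44 over 56 cells), while Hmga2 (0.00) and Hmga1 (-0.13) by themselves did not.

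**Figure D5:**
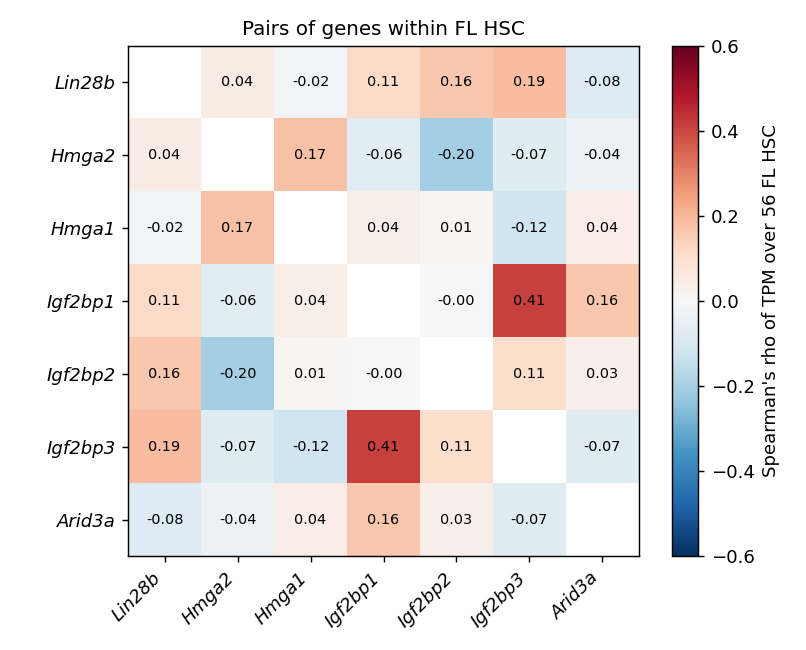
Spearman's rho of TPM for each pair of the 7 listed members over the 56 FL HSC, from blue (negative) to red (positive). Igf2bp1 with Igf2bp3, at 0.41, stands out, and every other pair lies between -0.20 and 0.19.

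Genes with the pattern most like each member were taken as the 5 highest Pearson's r of log2(TPM + 1) over all 180 cells, for the 6 members present in at least 20 cells. Over all cells these lists mostly repeated the contrast of FL HSC with the rest. Pisd-ps3, a pseudogene, was in the list of all 6 members and Hbb-b2, an adult beta globin gene, in 5. The highest r was 0.68, of Hmga2 with Pisd-ps3. Another member appeared only for Igf2bp1 and Igf2bp3, each in the list of the other (r = 0.57), and Igf2 appeared for Igf2bp2 (r = 0.54). Within the 56 FL HSC the lists were different and the values lower: Sirt2 for Hmga2 (r = 0.46), Lmbr1l for Hmga1 (0.45), Fam57a for Igf2bp1 (0.54), Tfr2 for Igf2bp2 (0.43), Zcchc3 for Igf2bp3 (0.56) and Rusc1 for Arid3a (0.55). Zcchc3 for Igf2bp3 and Rusc1 for Arid3a were among the 5 both over all cells and within FL HSC.

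Other features of the table also set FL HSC apart, and, beyond the values given here, their part in the levels of the members was not tested. Pisd-ps3 was present in all 56 FL HSC and at 0 in each of the other 124 cells. Vamp7, Spry3 and Tmlhe, which GENCODE M21 places on sequences outside the assembled chromosomes, were likewise above 0 in FL HSC only. Whether FL HSC were aligned or annotated with another version of the reference than the other cells was not tested, and this limit holds for every difference of FL HSC given here. Of the genes present in at least 50% of FL HSC, 4 were at 0 in all other cells: Dhrsx, H19, Pisd-ps3 and Vamp7. Beta globin transcripts moved in the same way, but the alpha globin genes were present in few cells of every population. Hba-a2 was present in 9 FL HSC, 6 CD11b+CD48+SK cells, 3 BM HSC and 4 WT-MPP. Hba-a1 was present in 1 FL HSC, 1 WT-MPP and no other cell. The summed TPM of 9 listed erythroid markers had a median of 3353 in FL HSC (127 to 16380), 99.0 in BM HSC, 4.41 in CD11b+CD48+SK cells and 2.48 in WT-MPP, with Hbb-b1, Hbb-b2 and Beta-s (an older symbol of Hbb-bs) as the main contributors. Of the erythroid markers other than globins, Epor, the erythropoietin receptor gene, was present in 23 FL HSC, 7 BM HSC, 1 WT-MPP and no CD11b+CD48+SK cell. Tfrc was present in 8 FL HSC (14.3%), 7 CD11b+CD48+SK cells (14.9%), 4 BM HSC (11.1%) and 6 WT-MPP (14.6%). Gata1 was present in 4 FL HSC (7.14%), 3 CD11b+CD48+SK cells (6.38%), 3 BM HSC (8.33%) and no WT-MPP. Klf1 was present in 2 FL HSC (3.57%), 3 CD11b+CD48+SK cells (6.38%), 1 BM HSC (2.78%) and no WT-MPP. Among the 29 FL HSC whose sum was no higher than the highest BM HSC, Hmga2 was present in 22, Igf2bp1 in 17, Igf2bp2 in 20, Igf2bp3 in 11, Arid3a in 16 and Lin28b in 2 (6.90%). That limit was a sum of 3441.6 TPM, above the FL HSC median, so these 29 cells were not matched to BM HSC in erythroid level. Within FL HSC the rho of the erythroid sum with each member lay between -0.18 and 0.16.

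Some markers of liver cells and macrophages were also more frequent in FL HSC than in BM HSC, and others were not. Of the 10 hepatocyte or hepatoblast markers 6 were listed. Alb, the main plasma protein of hepatocytes, was present in 1 of 56 FL HSC and Apoa2 in 6, and both were at 0 in every cell of the other populations. Apoa1 was present in 7 FL HSC, 5 BM HSC, 2 WT-MPP and no CD11b+CD48+SK cell, and Afp in 7 FL HSC, 13 CD11b+CD48+SK cells, 9 BM HSC and 8 WT-MPP. Trf, which encodes transferrin, was present in 33 FL HSC, 40 CD11b+CD48+SK cells, 10 BM HSC and 18 WT-MPP. Dlk1, a fetal liver and imprinted gene, was present in 29 FL HSC and 2 BM HSC and in no other cell. The summed level of the 6 had a median of 82.1 TPM in FL HSC (0 to 524), 147.1 in CD11b+CD48+SK cells (0 to 1029), 4.42 in BM HSC (0 to 316) and 1.095 in WT-MPP (0 to 663). Of the 6 listed macrophage markers, Cd68 was present in 29 FL HSC, 8 CD11b+CD48+SK cells, 7 BM HSC and 10 WT-MPP. The receptor gene Csf1r was present in 5 FL HSC and in no other cell, and Emr1 in 1 FL HSC and 1 BM HSC. The complement genes C1qa, C1qb and C1qc were present in 2, 3 and 6 FL HSC, 3, 5 and 7 CD11b+CD48+SK cells, 2, 2 and 3 BM HSC, and 4, 2 and 6 WT-MPP. The summed macrophage level had a median of 40.1 TPM in FL HSC and 0 in each of the other populations, with highest cells of 1461 in FL HSC, 829 in CD11b+CD48+SK cells, 738 in BM HSC and 4139 in WT-MPP. In the 21 FL HSC with none of Alb, Apoa1, Apoa2 and Trf at a TPM of 10 or more, Hmga2 was present in 17, Igf2bp2 in 15, Igf2bp1 in 11, Arid3a in 11, Igf2bp3 in 9 and Lin28b in 3. Dlk1 and Afp were not used for this split, so FL HSC that held either may remain among the 21. Of 7 endothelial markers, some of which stem cells also express, Tek was present in 29 FL HSC, 2 CD11b+CD48+SK cells, 9 BM HSC and 4 WT-MPP. Emcn was present in 40 FL HSC, 1 CD11b+CD48+SK cell, 14 BM HSC and 27 WT-MPP, and Pecam1 in 34, 27, 14 and 17. Cdh5 was present in 7 FL HSC and 1 WT-MPP, Kdr in 1 FL HSC and 2 BM HSC, Stab2 in 1 FL HSC and Lyve1 in 1 BM HSC. The summed endothelial level had a median of 154.8 TPM in FL HSC (0 to 936), 17.6 in CD11b+CD48+SK cells (0 to 281), 37.03 in BM HSC (0 to 733) and 142.1 in WT-MPP (0 to 3749).

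The other steps of the let-7 pathway did not share the pattern as a group. Of 20 genes of let-7 biogenesis and turnover 18 passed the filter. Of these, 3 were higher in FL HSC than in BM HSC by 1 or more and none was lower, against 25.6% and 5.44% of the kept genes. With 18 genes, both counts lie near those shares. The median difference of the 18 was -0.11 against 0.31 over the kept genes. The 3 were Tarbp2, a partner of Dicer, by 2.18, Prkra, another Dicer partner, by 1.24, and Hnrnpa1, an RNA-binding protein of pri-let-7, by 2.40. Dicer1 itself was present in 20 of 56 FL HSC and 7 of 36 BM HSC, with a difference of 0.35. Tut4 and Tut7, the terminal uridylyl transferases that act with LIN28A, differed by -0.20 and -0.58. Tarbp2 also stood 3.16 above CD11b+CD48+SK cells and 4.42 above WT-MPP.

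Known let-7 targets outside the program were mixed. Of 27 such genes 20 passed the filter, with 3 higher and 3 lower in FL HSC than in BM HSC by 1 or more, against 25.6% and 5.44% of the kept genes, and a median difference of 0.39. The higher genes were E2f6 (1.73), Ezh2 (1.68) and Nap1l1 (1.21), and the lower ones were Myc (-2.85), Dusp1 (-1.58) and Ccnd2 (-1.05). Mycn and Myc went in opposite directions: Mycn was present in 54 of 56 FL HSC and 16 of 47 CD11b+CD48+SK cells, with a median TPM of 325.6 and 0.24, while Myc was present in 30 FL HSC and all 47 CD11b+CD48+SK cells, with a median of 34.6 and 599.7. The difference of FL HSC from CD11b+CD48+SK cells was 5.44 for Mycn and -4.86 for Myc.

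The insulin-like growth factor genes include Igf2, whose mRNA gave the IGF2BP proteins their name, and H19, its imprinted neighbour. Both were mainly seen in FL HSC. Igf2 was present in 32 of 56 FL HSC, 1 of 36 BM HSC, 1 of 41 WT-MPP and no CD11b+CD48+SK cell, and H19 was present in 37 FL HSC and listed at 0 in all other cells. The difference from BM HSC was 2.30 for Igf2 and 3.78 for H19. The single BM HSC with Igf2 had it at a TPM of 31.4. The receptors did not set FL HSC apart from BM HSC in the same measure, with differences of -0.01 for Igf1r, 0.12 for Igf2r and 0.58 for Insr. Of the 6 genes of this list that passed the filter, 2 stood 1 or more above BM HSC (25.6% of the kept genes did), and 3 stood so above WT-MPP (33.9%) and above CD11b+CD48+SK cells (20.9%), Igf1 being the third.

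HMGA2 is known to repress the Ink4 and Arf locus in stem cells, but Cdkn2a and Cdkn2b had no row in the table. Cdkn1b, which encodes the cell cycle inhibitor p27, was present in 6 of 56 FL HSC, 17 of 47 CD11b+CD48+SK cells, 21 of 36 BM HSC and 30 of 41 WT-MPP, and its mean log2(TPM + 1) was lower in FL HSC than in BM HSC, with a difference of -1.996. Cdkn1a, which encodes p21, was present in 8 FL HSC, 3 CD11b+CD48+SK cells, 5 BM HSC and no WT-MPP, and the difference of FL HSC was -0.31 from BM HSC, 0.34 from CD11b+CD48+SK cells and 0.60 from WT-MPP. Cdkn2c was present in 4 FL HSC, 19 CD11b+CD48+SK cells, 1 BM HSC and 8 WT-MPP, and the difference of FL HSC was 0.25 from BM HSC, -2.04 from CD11b+CD48+SK cells and -0.96 from WT-MPP. Of 7 other high mobility group genes, 4 stood 1 or more above BM HSC in FL HSC, against 25.6% of the kept genes: Hmgb2 by 2.28, Hmgn2 by 1.46, Hmgb3 by 1.03 and Hmgn1 by 1.01. Arid3b, the paralogue of Arid3a, was present in 8 FL HSC, 2 CD11b+CD48+SK cells, 1 BM HSC and 5 WT-MPP, and the difference of FL HSC was 0.46 from BM HSC and 0.02 from WT-MPP. Of the 7 partners of IGF2BP in mRNA granules none stood 1 or more above BM HSC, a count of 0 that lies near the share of 25.6% of the kept genes, and Ybx1 was present in all 56 FL HSC and all 36 BM HSC with a difference of -0.36.

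Proliferation genes were high in both FL HSC and CD11b+CD48+SK cells. Of 12 such genes, 11 stood 1 or more above BM HSC in FL HSC with a median difference of 2.19, against 25.6% of the kept genes, but only Ccnb1 did so against CD11b+CD48+SK cells, where the median difference was 0.40 and 20.9% of the kept genes did. In CD11b+CD48+SK cells 11 of the 12 stood 1 or more above WT-MPP, against 19% of the kept genes. The count for the members, 0 of 7, lies near that share. Within the FL HSC, Spearman's rho of a member with the mean of the proliferation genes lay between -0.21 for Arid3a and 0.10 for Lin28b over 56 cells.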

How the data were processed

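Single cells were sorted into the 4 populations, and cDNA was amplified and made into libraries by the authors with commercial whole-transcriptome and tagmentation kits. Per the labels, the authors used bcl2fastq, HISAT2 2.1.0, SAMtools 0.1.19 and StringTie 1.3.4 on build mm10, and they deposited TPM values, 1 column per cell, with each cell summing to 1000000. Whether reads were counted by strand, and the annotation, are not given in the sources used here. Groups were taken from the sample labels, and 1 column that matched no sample was not used. A gene was called present at a TPM of 1 or more, means were taken of log2(TPM + 1), and genes present in at least 10% of the cells of 1 population were kept (10856). A cell is not a replicate of its population, so no test was made between populations. A difference of 1 or more marks a size and is no test.

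Named genes were the members, hand-written lists, and for each member present in at least 20 cells the 5 genes of highest Pearson's r over all cells and over FL HSC (genes present in at least 20 cells, or in 10 FL HSC). Results of some genes are not reported here. Older symbols were matched through RefSeq names. The members and lists were chosen with earlier results of these data known. Sequences were read from RefSeq (GRCm38.p6) and GENCODE M21. Exact intervals were at the 95% level. Alternatives were the presence limit, the pseudocount, the filter, the averaging, a scaling of cells by their median ratio, and subsets of cells. Python 3.11.15 with numpy 2.4.6, pandas 2.3.3, scipy 1.17.1 and matplotlib 3.10.9 was used.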

Additional observations from a re-analysis of the deposited data

How the results depend on the processing

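No paired analysis was possible because each population counted as 1 sample and no animal was named. All 7 members kept their highest share in FL HSC at a presence limit of above 0 or of 10 TPM, against 35.9% and 54.4% of the kept genes. Within the cells of the shared range of gene numbers, and without the cells holding a hepatocyte or macrophage marker at a TPM of 10 or more, the count was 6, against 21.5% and 35.8%. The share of FL HSC with 3 or more members was 98.2% with presence above 0 and 64.3% with presence at a TPM of 10 or more. The number of members at least 2-fold higher in FL HSC than in BM HSC was 2 with a pseudocount of 10, which shrinks differences of low genes and left 9.61% of the kept genes called. It was 5 within the shared range (19.5% of the kept genes) and without marker-bearing cells (29.7%). It was 6 with a pseudocount of 0.1 (34.9%), the log of the mean (11.8%), scaled cells (24.8%), no filter (18.7% of all genes) and a stricter filter (32.6%). Without marker-bearing cells 8 FL HSC and 17 BM HSC remained. No difference between FL HSC and BM HSC changed sign in these settings, but that of Lin28b was 0 in the shared range of gene numbers and at most 0.79 elsewhere. The depth of reads is unknown, so an absent gene may be one that was missed.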
